A study of Macaca mulatta with 6 samples.

Results

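RAB small GTPases were followed in laser-captured serotonin neurons of the dorsal raphe of 6 female rhesus macaques, with 1 microarray per monkey. Members were the probe sets whose platform annotation gave exactly 1 gene symbol made of RAB, a number and at most a letter, such as RAB3A or RAB11B; RAB-interacting proteins and the subunits of RAB3GAP were not members. The rule found 81 probe sets for 39 genes, of 52766 probe sets that are not controls and of 14132 genes named in this way. Steroid capsules had been under the skin for 1 month and held estrogen and progesterone in 2 monkeys, estrogen in 2 and placebo in 2. Ovx stands in the placebo titles and was taken to mean ovariectomized, which would make placebo a state without ovarian hormones; the titles of the other samples name the treatment alone, so whether all 6 animals had lost their ovaries is not stated. Each group was limited to 2 animals of one sex, and neither doses nor ages were given in the labels.

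RAB proteins are molecular switches that give membranes their identity. Bound to GTP they recruit effectors such as tethers, motors and coat adaptors to a given organelle, and bound to GDP they are drawn off the membrane by GDP dissociation inhibitors. Exchange factors turn them on, GTPase-activating proteins turn them off, and a lipid tail added by a geranylgeranyl transferase lets them sit in the membrane. In neurons they act in the release of synaptic and dense-core vesicles, in the traffic of receptors through endosomes, and in transport along axons and dendrites. Most of them are made by nearly all cell types, so their transcripts do not mark neurons. In captured tissue, fewer cells of a type and less RNA per cell cannot be told apart.

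Background was unequal between the arrays, and this comes before any result on RAB genes. The floor of an array was set at the 95th percentile of 59 controls of bacterial or tag sequence. It lay at a signal of 74.9 and 283 on the arrays given estrogen+progesterone, at 29.99 and 51.6 on the estrogen arrays and at 216 and 221 on the placebo arrays. Estrogen+progesterone 2 stood apart from every other array: across the 26383 probe sets tested it correlated at r = 0.000477 with its partner, estrogen+progesterone 1, while that partner correlated at 0.913 and 0.842 with the estrogen arrays (probe sets are not independent replicates). Differences and medians of the combined treatment are therefore also given without estrogen+progesterone 2, while fold bounds, counts of calls and counts of groups that do not overlap use all arrays unless an omission is named. Markers of other cells were present, and their sums differed between the arrays, not all in the same order. Summed signals of 8 named astrocyte markers were 77003 and 3878 with estrogen+progesterone, 66759 and 76823 with estrogen and 21998 and 23609 with placebo. Those of 5 general neuronal markers were 20124 and 1621 with estrogen+progesterone, 22623 and 25868 with estrogen and 4773 and 10026 with placebo. For 4 oligodendrocyte markers the sums were 50433 and 2529.7 with estrogen+progesterone, 37356 and 52921 with estrogen and 33629.5 and 47019 with placebo, so estrogen and placebo overlapped. Microglial sums of 10 markers were within 2186 to 4515, and those of 5 endothelial and mural markers within 541 to 934, with both ends of the first and the high end of the second in the combined group. The sum of 2 erythrocyte markers ran the other way, with 172 and 501 with estrogen+progesterone, 65.5 and 141 with estrogen and 804 and 601 with placebo. Of 10 serotonin neuron markers 7 were named on the array, and 3 to 6 of the 7 were above the floor on an array. Their sums were 1412 and 2074 with estrogen+progesterone, 1558 and 898 with estrogen and 1879 and 1666 with placebo. FEV and GATA3 were above the floor on 6 arrays, GATA2 on 5, SLC18A2 on 4, and LMX1B and HTR1A on 1 each. TPH2, the defining hydroxylase, was above it on the estrogen arrays alone, at 54.0 and 63.2. Its deposited signals were 12.5 and 243 with estrogen+progesterone and 126 and 211 with placebo, all below their floors. The part of these differences in the RAB results was not tested.

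RAB transcripts were above the floor more often on the 2 estrogen arrays than on any other. Of the 81 RAB probe sets, 52 (64.2%) and 23 (28.4%) were above it with estrogen+progesterone, 68 (84.0%) and 63 (77.8%) with estrogen, and 37 (45.7%) and 45 (55.6%) with placebo. All probe sets with 1 gene symbol gave 60.5% and 27.8% with estrogen+progesterone, 73.0% and 69.1% with estrogen, and 40.2% and 39.99% with placebo. The RAB share lay above that of named probe sets on all 6 arrays, by the least on estrogen+progesterone 2, and by either count the estrogen arrays were highest and estrogen+progesterone 2 lowest. Judged on the brightest probe set of each gene, 9 of 39 RAB genes were above the floor on all 6 arrays: RAB1A, RAB2A, RAB5C, RAB7A, RAB8B, RAB9B, RAB11B, RAB31 and RAB35. RAB10, RAB27B, RAB41 and RAB42 were above it on none, which says that they were not detectable here and not that they are absent.

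**Figure D1:**
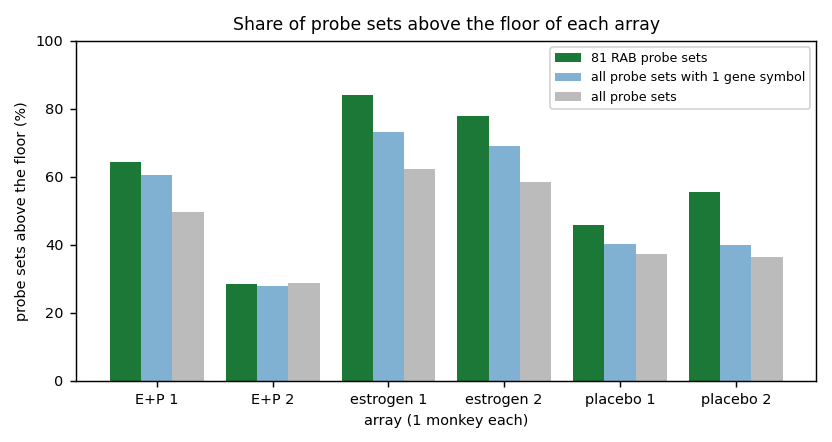
Percent of probe sets above the floor of each array (y axis) on the 6 arrays (x axis, 1 monkey each; E+P, estrogen and progesterone), for the 81 RAB probe sets, all probe sets with 1 gene symbol and all probe sets. The RAB bars are highest on the estrogen arrays (84.0% and 77.8%) and lowest on the second E+P array (28.4%).

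**Figure D2:**
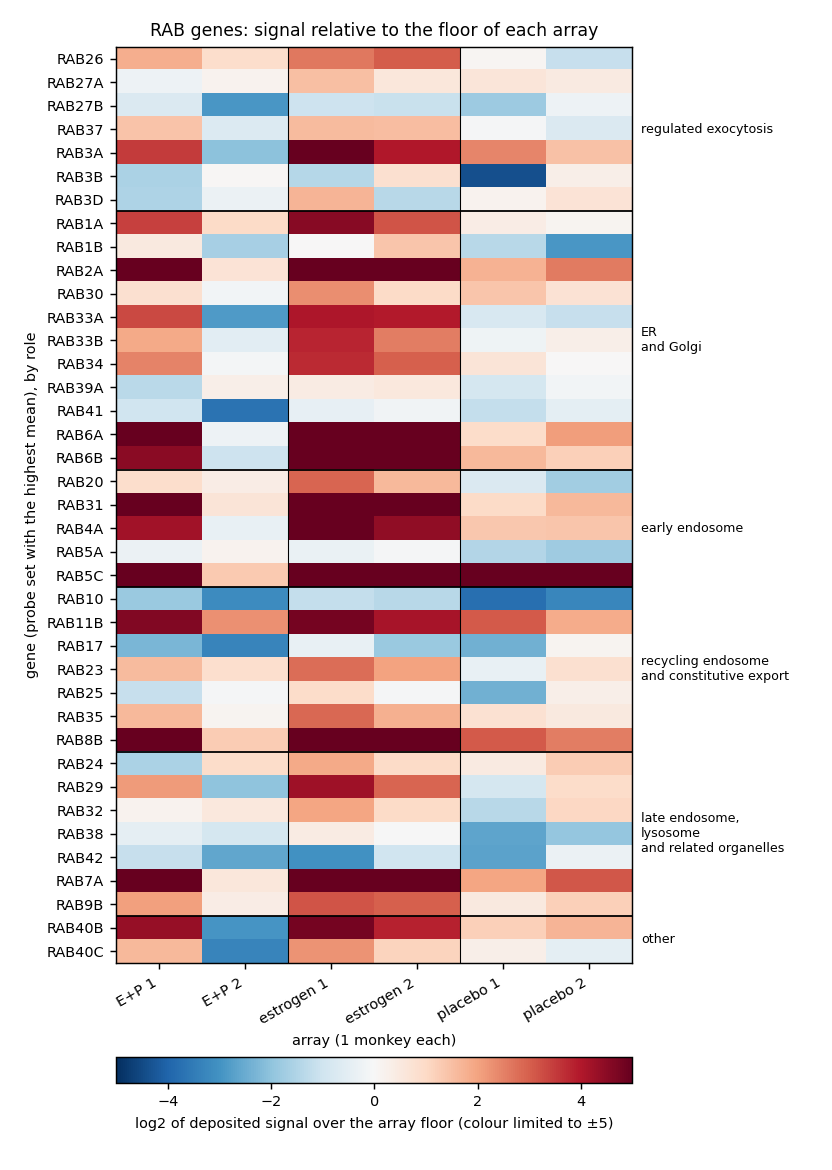
Log2 of the deposited signal over the array's own floor for 39 RAB genes (rows, by role, each by its probe set with the highest mean) on 6 arrays (columns). Red cells are above the floor and blue cells below it, and the colour stops at 5 in either direction. Most genes that are red on both estrogen arrays and on E+P 1 are paler or blue on E+P 2 and on the placebo arrays.

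Among the RABs of regulated exocytosis, RAB3A stood well above the floor on every array but estrogen+progesterone 2. RAB3A, which sits on synaptic vesicles and binds RIM at release sites, had signals of 851 and 69.0 with estrogen+progesterone, 987 and 828 with estrogen and 1158 and 613 with placebo. The low value is the estrogen+progesterone 2 array, and the estrogen and placebo signals overlapped as deposited. RAB26, a RAB of secretory granules and of synaptic vesicles bound for autophagy, had 264 and 519 with estrogen+progesterone, 187 and 418 with estrogen and 232 and 99.1 with placebo. RAB27A, which docks dense-core and lysosome-related granules, had 63.4 and 319.9 with estrogen+progesterone, 85.3 and 77.0 with estrogen and 327 and 301 with placebo. Its 3 high values came from the 3 arrays with the highest floors. RAB3D, a relative of RAB3A known from secretory granules, had 25.4 and 229 with estrogen+progesterone, 97.9 and 19.6 with estrogen and 242 and 355 with placebo. Both placebo signals were above the floor and both estrogen+progesterone signals below it. RAB37, another granule RAB, exceeded the floor at 201 on estrogen+progesterone 1 and at 89.1 and 152 with estrogen. RAB3B did not enter the test; it was above the floor on 1 array of each group, at 294 with estrogen+progesterone, 90.8 with estrogen and 268 with placebo. RAB27B had 2 probe sets, and neither was above the floor on any array. RAB3C had no named probe set here.

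RABs of the endoplasmic reticulum and Golgi were the largest group, with 11 genes, 9 of them tested. RAB1A, which carries vesicles from the endoplasmic reticulum to the Golgi, had signals of 798 and 547 with estrogen+progesterone, 700.1 and 454 with estrogen and 281 and 246 with placebo. Both hormone groups lay above placebo on all arrays, and the placebo signals stood little above their floors of 216 and 221. RAB2A, a RAB of the same step and of dense-core vesicle formation, had 2915 and 459 with estrogen+progesterone, 3628 and 1801 with estrogen and 713 and 1336 with placebo. RAB6A, which drives traffic within and out of the Golgi, had 2960.3 and 239.8 with estrogen+progesterone, 3022 and 2914 with estrogen and 406 and 947 with placebo. Its neuronal relative RAB6B had 1712 and 139 with estrogen+progesterone, 2509 and 2521 with estrogen and 656 and 499.8 with placebo. For RAB2A, RAB6A and RAB6B the estrogen+progesterone 2 array gave the lowest signal of the 6, and the other 3 hormone arrays gave the 3 highest.

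Other Golgi RABs missed the floor more often. RAB33A, a RAB of the brain and immune cells that acts at the Golgi and in axon growth, had 735 and 40.2 with estrogen+progesterone, 489 and 816 with estrogen and 125 and 100.3 with placebo. Both placebo signals and the second estrogen+progesterone signal were below the floor. RAB33B, which binds the autophagy factor ATG16L1, had 281 and 198 with estrogen+progesterone, 424 and 302 with estrogen and 184 and 273 with placebo. RAB30, a Golgi RAB, was highest with placebo, at 132 and 260.1 with estrogen+progesterone, 151 and 99.7 with estrogen and 569 and 369 with placebo. RAB34, linked to lysosome position and cilium formation, had 414 and 264 with estrogen+progesterone, 400.3 and 409 with estrogen and 342 and 227 with placebo. RAB39A exceeded the floor at 346 on estrogen+progesterone 2 and at 39.3 and 74.7 with estrogen. RAB1B and RAB41 did not enter the test, though RAB1B exceeded the floor at 106 on estrogen+progesterone 1 and at 30.6 and 135 with estrogen.

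Early endosome RABs were lowest, or near the placebo signals, on estrogen+progesterone 2 for 3 of the 4 tested genes. RAB5C, a RAB of endosome fusion, had 13538 and 701 with estrogen+progesterone, 12224 and 14768 with estrogen and 6857 and 11487 with placebo. The estrogen+progesterone 2 signal was far under the other 5. RAB31, a close relative of RAB5 that moves cargo between the Golgi and endosomes, had 3285 and 440.1 with estrogen+progesterone, 3268 and 2773 with estrogen and 418 and 674 with placebo. RAB4A, which returns receptors quickly to the surface, had 1368 and 217 with estrogen+progesterone, 2195 and 1115 with estrogen and 556 and 583 with placebo. RAB31 and RAB4A were higher on both estrogen arrays and on estrogen+progesterone 1 than on either placebo array, and estrogen+progesterone 2 lay among or under the placebo arrays. RAB20, known from endosomes and maturing phagosomes, had 136 and 364 with estrogen+progesterone, 227 and 160.3 with estrogen and 132 and 65.7 with placebo, the placebo signals below their floors. RAB5A did not enter the test; its probe set with the highest mean was above the floor on estrogen+progesterone 2 alone, at 321, and its other one at 86.3 on estrogen+progesterone 1 and at 54.4 and 109 with estrogen.

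Of the RABs of recycling endosomes and constitutive export, RAB8B, RAB11B and RAB35 were above the floor on every array. RAB8B, which takes cargo to the plasma membrane, had 3439.9 and 677 with estrogen+progesterone, 3695 and 3292 with estrogen and 1807 and 1309 with placebo. RAB11B, the RAB11 form abundant in brain and a guide of recycling to the surface, had 1837 and 1369.7 with estrogen+progesterone, 834 and 909.7 with estrogen and 1801 and 789.7 with placebo. The estrogen signals lay within the range of the placebo signals as deposited and under both estrogen+progesterone signals. RAB35, a RAB of fast endosomal recycling and synaptic vesicle protein turnover, ranged only from 175 to 363 over the 6 arrays. RAB23, known for restraint of Hedgehog signaling, had 223 and 504 with estrogen+progesterone, 208 and 206 with estrogen and 168 and 389.8 with placebo. RAB10, RAB17 and RAB25 did not enter the test, and of these RAB17 and RAB25 exceeded the floor on placebo 2, at 244 and 274, and RAB25 on estrogen 1 as well. RAB11A and RAB14 had no named probe set here.

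Of the RABs of late endosomes and lysosomes, RAB7A and RAB9B were above the floor on all 6 arrays. RAB7A, which also directs long-range transport of neurotrophin receptors in axons, had 3612 and 418 with estrogen+progesterone, 5009 and 3051 with estrogen and 855 and 1921 with placebo, again lowest on estrogen+progesterone 2. RAB9B, a relative of the RAB9 that returns mannose 6-phosphate receptors to the Golgi, had 314 and 361 with estrogen+progesterone, 265 and 415 with estrogen and 306 and 498 with placebo, with no gap between groups. RAB24, an atypical RAB of autophagy, had 25.3 and 533 with estrogen+progesterone, 112 and 101 with estrogen and 298 and 536 with placebo. Here estrogen+progesterone 1 was the low array. RAB29, which recruits the kinase LRRK2 to membranes, had 327 and 69.4 with estrogen+progesterone, 564 and 391 with estrogen and 119 and 414 with placebo. RAB32, a RAB of lysosome-related organelles and mitochondria, had 83.9 and 405 with estrogen+progesterone, 119 and 100.03 with estrogen and 81.9 and 448 with placebo, with a wide gap within both the combined and the placebo pair. RAB38 and RAB42 did not enter the test. The group named other held RAB40B, whose protein is part of a ubiquitin ligase, with 1531 and 37.1 with estrogen+progesterone, 825 and 749 with estrogen and 491 and 724 with placebo, and RAB40C, with 229 and 28.5 with estrogen+progesterone, 142 and 112 with estrogen and 263 and 159 with placebo.

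Of the 81 RAB probe sets, 55 had a mean high enough for the test, and they stood for 29 genes. Differences below are on a log2 scale after an offset of 16 was added to the signal and the arrays were quantile normalized, so they understate changes of low signals. Each gene is represented by its brightest tested probe set, with the moderated standard error of limma (SE, n = 2 monkeys per group). The median SE of a RAB gene was 0.95, so a difference has to be several log2 units large to stand clear of the spread between animals.

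Estrogen was set against placebo to see its effect without progesterone. RAB33A, RAB20, RAB31, RAB26, RAB1A and RAB33B were the 6 genes named as higher with estrogen, and RAB30, RAB3D, RAB11B, RAB27A and RAB24 were the 5 named as lower, but none of the 29 genes passed the test. Of the 55 RAB probe sets limma called 0 at an adjusted p under 0.05, where it called 0 of 26383 over the array (0%). At an unadjusted p under 0.05 there were 6 of 55 RAB probe sets (10.9%), against 7.83% of all probe sets. Both placebo arrays had high floors and both estrogen arrays low ones, so here the treatment cannot be told apart from array signal.

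RAB33A exceeded the floor on the 2 estrogen arrays and missed it on the 2 placebo arrays, so its level with estrogen was higher by at least 3.21-fold (adjusted p = 0.635 from limma). RAB20 was in the same state, and on normalized values it was higher with estrogen by at least 1.45-fold (adjusted p = 0.648 from limma). As deposited, its estrogen signals of 227 and 160.3 did not both clear the placebo floors of 216 and 221. The RAB20 bound therefore rests on the normalization. Such a bound rests on the floor and leaves out both the spread between animals and the unequal signal of the arrays. The placebo means of RAB33A (6.44 on the normalized log2 scale) and RAB20 (6.26) lay under the filter. Both genes thus entered the test through the arrays where they are high. For RAB3D, given below, the means with estrogen (6.50) and estrogen+progesterone (6.53) lay under it, and RAB3D entered through the placebo arrays. RAB31 stood at 1.45 ± 0.92, RAB26 at 1.41 ± 0.90, RAB1A at 1.14 ± 0.81 and RAB33B at 1.01 ± 0.87, with adjusted p from 0.686 to 0.753 from limma. In the other direction RAB3D stood at -1.59 ± 1.01, RAB30 at -1.56 ± 0.83, RAB24 at -1.34 ± 1.23, RAB11B at -1.32 ± 0.95 and RAB27A at -1.05 ± 0.86, with adjusted p from 0.655 to 0.769. The groups of these 11 genes do not overlap, which, with a difference of at least 1, was a condition for naming them; 8 of 29 RAB genes met it in the higher direction, where 19.5% of all genes did, and 5 in the lower, where 10.3% did. When arrays were scaled to the hybridization controls instead, RAB3D, RAB30, RAB24, RAB11B and RAB27A all turned to differences above 0, and RAB11B did so under median-centering too, at 0.80. Members given whatever their values were RAB6A at 1.20 ± 1.15, RAB4A at 0.48 ± 1.01, RAB7A at 0.39 ± 0.96, RAB2A at 0.25 ± 0.91 and RAB3A at -0.75 ± 1.15, with adjusted p from 0.777 to 0.949. For RAB2A and RAB7A the sign turned without placebo 1, to -0.20 and -0.13, and RAB3A stood at 0.10 without quantile normalization, at 1.34 under median-centering and at 2.49 with scaling to the hybridization controls.

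By role, the tested Golgi and early endosome genes lay mostly above 0 with estrogen. Differences were above 0 for 7 of 9 genes of the endoplasmic reticulum and Golgi (median 1.01) and 4 of 4 early endosome genes (0.97). These counts hold for the brightest tested probe sets. Others stood at -1.24 for RAB20, -2.10 and 3.31 for RAB31, -0.31 and 0.10 for RAB5C, and 0.92 and 1.39 for RAB4A. For Golgi genes they stood at -0.94 and 3.19 (RAB1A), 1.15, -0.18, -0.51 and 2.25 (RAB2A), 0.27, -0.97 and -0.03 (RAB6A) and 3.51 (RAB6B). They were above 0 for 2 of 5 genes of regulated exocytosis (-0.75), 1 of 4 of recycling and export (-0.24) and 2 of 5 of late endosomes and lysosomes (-0.12). Over all 29 RAB genes, 17 were above 0 with a median of 0.25, against 60.6% of the 9781 genes tested with a median of 0.28. Groups did not overlap for 11 of 29 RAB genes that were higher with estrogen, where 30.6% of all genes did so, and for 7 of 29 that were lower, where 19.8% did. These shares are near the background, and the genes counted are those that passed the filter on low values. The count above 0 depended on scaling: it was 24 of 29 under median-centering and 29 of 29 with scaling to the hybridization controls, while all genes moved along, so that the RAB medians of 1.76 and 2.91 stood beside 1.51 and 2.66 for all genes.

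**Figure D3:**
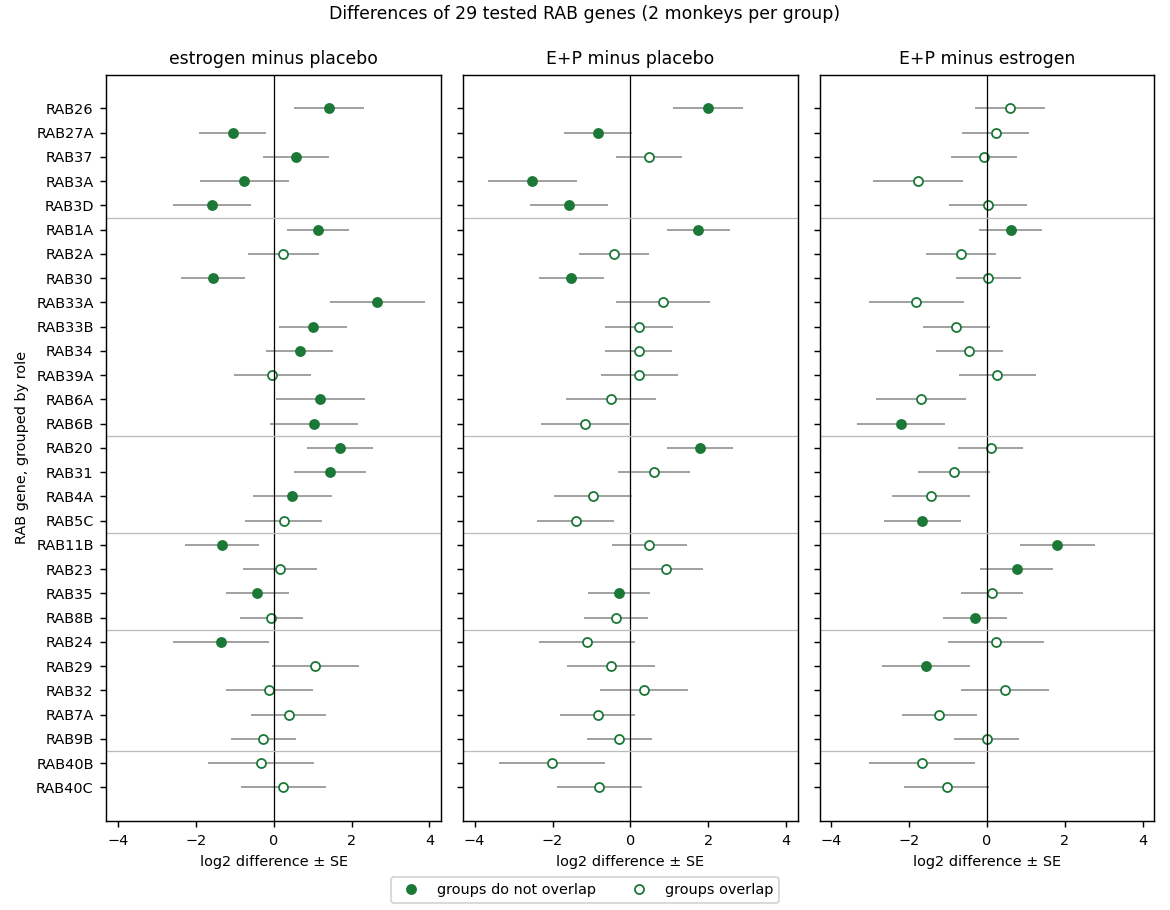
Log2 differences (points) with moderated standard errors (bars) of 29 tested RAB genes, grouped by role, in 3 comparisons of 2 monkeys per group; E+P, estrogen and progesterone. Filled points mark genes whose normalized values do not overlap between the groups. The left panel spans -1.59 to 2.66, the middle one -2.52 to 2.001 and the right one -2.20 to 1.81, and most bars reach 0 or end within 1 SE of it.

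Probe sets of a single RAB gene often disagreed with each other. Of the 81 member probe sets, 6 carry the platform's mark s and 1 the mark x, for probes that can match more than 1 transcript, so those may read related genes as well. There were 13 genes with 2 or more tested probe sets, and in 4 of the 13 all of them had 1 sign for estrogen minus placebo: RAB4A, RAB6B, RAB7A and RAB29. RAB31 had the widest range of the 13. Next to the 1.45 given above, another RAB31 probe set, with signals of 115 and 127 with estrogen+progesterone, 278 and 339 with estrogen and 19.3 and 38.0 with placebo, stood at 3.31 ± 0.83. The remaining one, marked x, stood at -2.10 ± 0.93, with 624 and 826 with estrogen+progesterone, 339 and 313 with estrogen and 1452 and 753 with placebo; under scaling to the hybridization controls it turned to 0.76. The median range between the probe sets of a gene was 2.46 on the log2 scale.

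When limma weighted the arrays by their spread, it called 4 of 55 RAB probe sets for estrogen minus placebo (7.27%), where it called 434 of 26383 over the array (1.64%). The 2 arrays of a group got equal weights, 0.32 with estrogen+progesterone, 3.95 with estrogen and 0.79 with placebo. So whole groups were weighted, and estrogen+progesterone 2 was not set below its partner. All 4 were higher with estrogen and missed the floor in both placebo animals, and none was the brightest probe set of its gene; they are named here after their values were seen. The means of all 4 over the placebo arrays lay under the filter, so they entered the test through the arrays where they are high, and nothing is read from their share of 7.27%. RAB6B was higher by at least 2.64-fold in a probe set with 425 and 25.1 with estrogen+progesterone, 635 and 381 with estrogen and 38.0 and 36.0 with placebo (adjusted p = 0.0406 with array weights, and 0.635 without, from limma). RAB7A was higher by at least 2.59-fold in a probe set with 367 and 28.7 with estrogen+progesterone, 511 and 436 with estrogen and 20.4 and 62.3 with placebo (adjusted p = 0.0406 with array weights). RAB1A was higher by at least 3.95-fold in a probe set marked s, with 766 and 136 with estrogen+progesterone, 783 and 937 with estrogen and 174 and 39.9 with placebo (adjusted p = 0.0457 with array weights). The RAB31 probe set that stood at 3.31 was higher by at least 1.97-fold (adjusted p = 0.0349 with array weights). For RAB6B, RAB7A and RAB1A estrogen+progesterone 1 was as high as the estrogen arrays or nearly so and estrogen+progesterone 2 was below its floor.

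**Figure D4:**
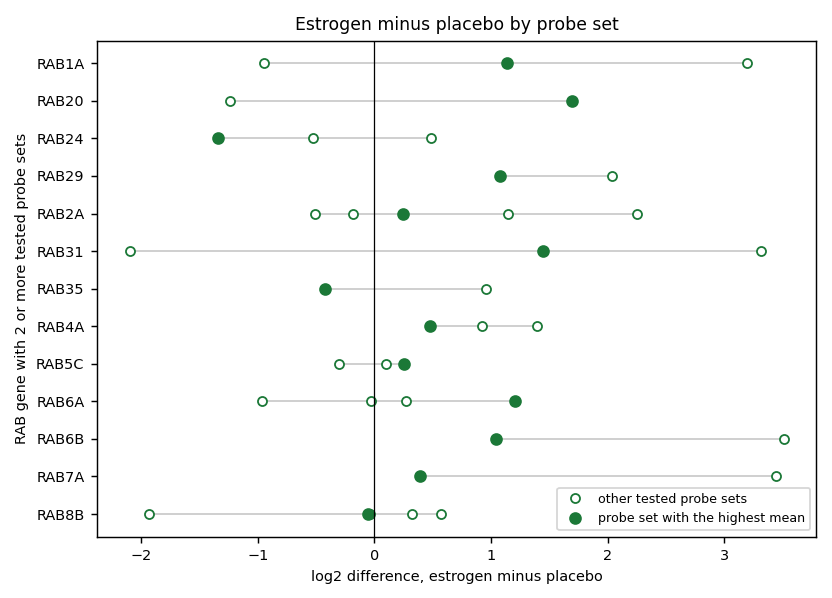
Log2 difference of estrogen minus placebo (x axis) for each tested probe set of the 13 RAB genes that have 2 or more (y axis); filled points are the probe sets with the highest mean, open points the others. RAB31 runs from -2.10 to 3.31, and RAB4A, RAB6B, RAB7A and RAB29 lie on 1 side of 0.

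The comparison of the combined treatment with placebo asks what estrogen and progesterone did together. RAB26, RAB1A and RAB20 were named as higher with both hormones and RAB3A, RAB30 and RAB3D as lower, and none of the 29 genes passed. In the higher direction 3 of 29 met the conditions for naming, where 7.74% of all genes did, and in the lower 3, where 8.12% did. Limma called 0 of 55 RAB probe sets and 0 of 26383 over the array (0%), and 1 of 55 (1.82%) had an unadjusted p under 0.05, against 3.3% of all probe sets. This comparison shares its placebo arrays with the one above, so like values are not a second observation.

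RAB26 stood at 2.001 ± 0.90 and RAB1A at 1.74 ± 0.81 for both hormones minus placebo, each with adjusted p = 0.992 from limma. RAB20 missed the floor in both placebo animals. On normalized values it was higher with both hormones by at least 1.55-fold (adjusted p = 0.992 from limma). As deposited, its signal of 136 on estrogen+progesterone 1 was under the placebo floors of 216 and 221, so this bound rests on the normalization. Its other tested probe set stood at -0.39, and those of RAB1A stood at -0.14 and 1.78. RAB3A stood at -2.52 ± 1.15, and without estrogen+progesterone 2, where its signal was 69.0, it stood at -0.84. RAB30 stood at -1.52 ± 0.83. RAB3D missed the floor on estrogen+progesterone 1 and 2, and on normalized values it was lower by at least 1.67-fold (adjusted p = 0.992 from limma for both genes). As deposited, the RAB3D placebo signals of 242 and 355 did not both clear the floor of 283 on estrogen+progesterone 2. The RAB3D bound therefore rests on the normalization. As given above, RAB20 and RAB3D entered the test through the arrays where they are high. Without estrogen+progesterone 2 the 6 genes kept their signs, as they had to, having been picked for groups without overlap; RAB26 then stood at 1.43, RAB1A at 1.72, RAB20 at 1.37, RAB30 at -1.69 and RAB3D at -2.44. The other members given whatever their values were RAB2A at -0.42 ± 0.91, RAB4A at -0.96 ± 1.01, RAB6A at -0.50 ± 1.15 and RAB7A at -0.83 ± 0.96. All 4 turned above 0 without estrogen+progesterone 2, to 0.42, 0.42, 1.31 and 0.26, and all 4 did so under median-centering and with scaling to the hybridization controls as well.

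Over the 29 genes, 12 were above 0 for both hormones minus placebo with a median of -0.37, against 46.2% of all genes and a median of -0.10. Groups did not overlap for 3 RAB genes that were higher, where 11.7% of all genes did so, and for 5 that were lower, where 12.7% did. Without estrogen+progesterone 2 the count was 17 of 28 with a median of 0.42, against a median of 0.36 for all genes; RAB39A no longer entered the test. Median-centering gave 20 of 29 above 0 and scaling to the hybridization controls 21 of 29. The sign of the RAB median in this comparison thus turned with the scaling and when 1 array was left out.

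The comparison of the combined treatment with estrogen asks what progesterone added. RAB11B was named as higher with the combined treatment and RAB6B, RAB5C and RAB29 as lower, and none of the 29 genes passed. In the higher direction 1 of 29 met the conditions for naming, where 6.57% of all genes did, and in the lower 3, where 10.1% did. Limma called 0 of 55 RAB probe sets and 0 of 26383 over the array (0%), and 0 of 55 RAB probe sets had an unadjusted p under 0.05, against 1.76% of all probe sets. RAB11B stood at 1.81 ± 0.95, RAB6B at -2.20 ± 1.13, RAB5C at -1.66 ± 0.99 and RAB29 at -1.57 ± 1.13, each with adjusted p = 0.799 from limma. Without estrogen+progesterone 2 these were 0.92, -0.50, -0.33 and -0.30, and with scaling to the hybridization controls RAB11B turned to -0.89. Members given whatever their values were RAB3A at -1.77 ± 1.15, RAB6A at -1.70 ± 1.15, RAB4A at -1.44 ± 1.01, RAB7A at -1.22 ± 0.96, RAB2A at -0.67 ± 0.91 and RAB1A at 0.61 ± 0.81. Without estrogen+progesterone 2 they were -0.004, -0.02, -0.12, -0.17, 0.15 and 0.46.

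Estrogen+progesterone 1 was close to the estrogen arrays for most RAB genes. Of 28 genes tested without estrogen+progesterone 2, 22 differed from estrogen by less than 0.5 on the log2 scale, and 1 differed by 1 or more, against 11 of the 28 with all arrays. That gene was RAB24, at -1.73, named after its value was seen; its other tested probe sets stood above the floor on that array, at 259.7 and 221. The median size of a difference was 0.20 without estrogen+progesterone 2 and 0.72 with all arrays. With estrogen+progesterone 1 left out in its place, the lone sample is assumed to vary like the other groups, so only sizes are given. The RAB median was then -0.58 against -0.77 for all genes, with 13 of 30 RAB genes above 0. RAB40B stood at -3.99, RAB6B at -3.74, RAB33A at -3.73, RAB3A at -3.40, RAB5C at -2.98 and RAB4A at -2.59. These genes were named after their values were seen. With all 6 arrays normalized together, RAB40B (5.20), RAB33A (5.27), RAB3A (5.92) and RAB6B (6.66) lay under the filter on estrogen+progesterone 2. They entered the test through the arrays where they are high, and nothing is read from their differences. With all 6 arrays, 12 of the 29 genes were above 0 with a median of -0.31, against 34.0% of all genes and a median of -0.44. Groups did not overlap for 3 RAB genes that were higher, where 13.5% of all genes did so, and for 4 that were lower, where 17.9% did. Without estrogen+progesterone 2 the medians were -0.02 for RAB genes and 0.05 for all genes.

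**Figure D5:**
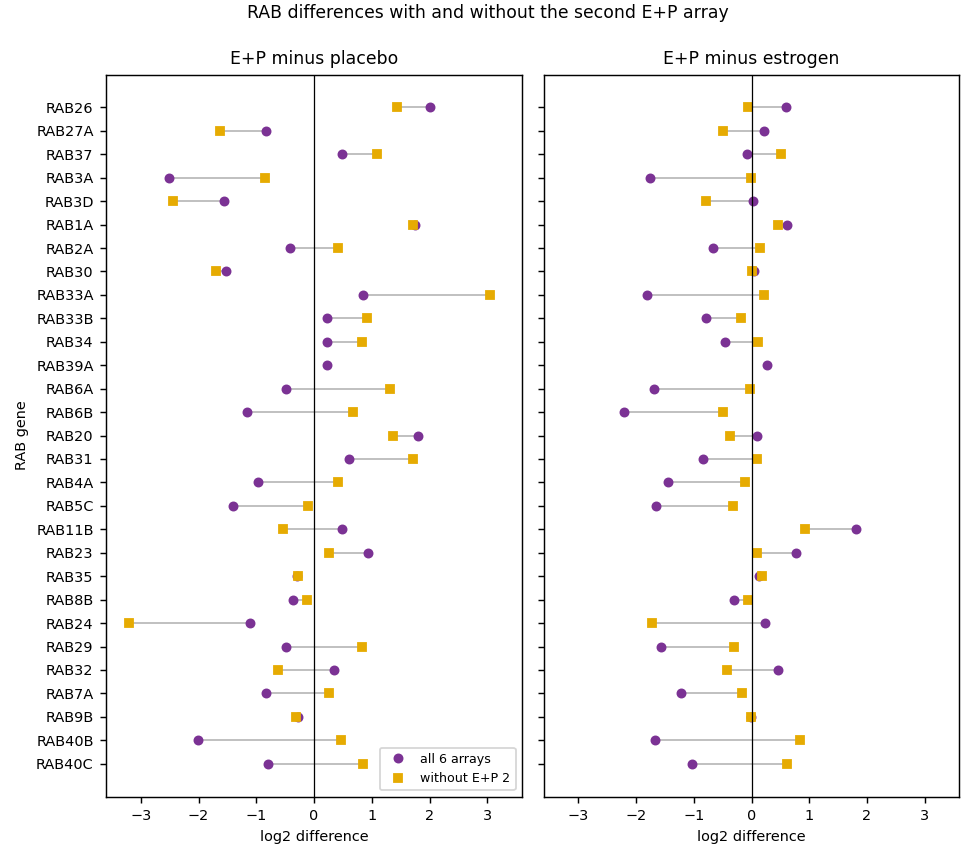
Log2 differences of 29 RAB genes (rows) with all 6 arrays (circles) and without the second E+P array (squares), for E+P minus placebo on the left and E+P minus estrogen on the right. In the right panel the squares gather near 0, with 22 of 28 within 0.5, and RAB39A has no square because it did not enter that test.

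Proteins that act on RABs were described from 4 lists, and none of their genes passed in any comparison by limma. Of exchange factors, 26 of 30 tested genes were above 0 for estrogen minus placebo (median 0.82), against 60.6% of all genes. For both hormones minus placebo 15 of 30 were above 0 (-0.03), against 46.2% of all genes. For both hormones minus estrogen 4 of 30 were (-0.91), against 34.0% of all genes. Without estrogen+progesterone 2 the last 2 counts were 23 of 30 (0.69) and 14 of 30 (-0.02). RIN2, an exchange factor for RAB5, had 898 and 134 with estrogen+progesterone, 1077 and 344 with estrogen and 32.8 and 255 with placebo, a difference of 2.56 ± 1.20 for estrogen minus placebo. MADD, the exchange factor of RAB3 proteins, had 259.98 and 55.2 with estrogen+progesterone, 255 and 842 with estrogen and 391 and 408 with placebo; its difference between both hormones and placebo was -1.87 ± 1.03, and -0.61 without estrogen+progesterone 2. MON1A, part of the exchange factor of RAB7, was below the floor with placebo. On normalized values it was higher with both hormones by at least 1.53-fold (adjusted p = 0.992 from limma). As deposited, its signals with estrogen+progesterone were 105 and 398, the first of them under the placebo floors of 216 and 221. The MON1A bound therefore rests on the normalization. The MON1A difference was 1.79 with all arrays and 1.07 without estrogen+progesterone 2. The placebo means of MON1A and RIN2 lay under the filter, so both genes entered the test through the arrays where they are high.

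Genes of prenylation and of extraction from membranes were above 0 for 9 of 12 with estrogen (median 0.51), for 7 of 12 with both hormones against placebo (0.11) and for 2 of 12 with both hormones against estrogen (-0.79). For all genes the shares above 0 in these comparisons were 60.6%, 46.2% and 34.0%. When estrogen+progesterone 2 was left out, the counts for both hormones became 8 of 12 (0.49) against placebo and 4 of 12 (-0.04) against estrogen. RABAC1, which helps to release RABs from GDP dissociation inhibitors, had 849 and 126 with estrogen+progesterone, 871 and 1638 with estrogen and 285 and 142 with placebo, a difference of 2.40 ± 1.08 for estrogen minus placebo (adjusted p = 0.635 from limma). GDI2, a GDP dissociation inhibitor, had 1503 and 157 with estrogen+progesterone, 1703 and 3082 with estrogen and 1002 and 640.03 with placebo. It stood at -2.11 ± 1.11 for both hormones minus estrogen and at -0.55 without estrogen+progesterone 2. GTPase-activating proteins were above 0 for 17 of 27 with estrogen (0.37), 13 of 27 with both hormones against placebo (-0.004) and 10 of 27 with both hormones against estrogen (-0.60). On omission of estrogen+progesterone 2 the counts for both hormones became 17 of 27 (0.25) against placebo and 12 of 27 (-0.02) against estrogen. TBC1D10B stood at -2.00 ± 0.89 for both hormones minus placebo, with 420 and 215 with estrogen+progesterone and 909.7 and 589.8 with placebo, and at -1.38 without estrogen+progesterone 2.

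Effectors were above 0 for 17 of 27 with estrogen (0.49), 12 of 27 with both hormones against placebo (-0.13) and 8 of 27 with both hormones against estrogen (-0.56). Of all genes, 60.6%, 46.2% and 34.0% were above 0 in the same comparisons, so the effector shares lay near the background. With estrogen+progesterone 2 left out, 25 effectors were tested, and both hormones gave 15 of 25 (0.34) against placebo and 11 of 25 (-0.05) against estrogen. RAB11FIP2, which links RAB11 to the motor myosin V, missed the floor in both placebo animals and was higher with estrogen by at least 2.10-fold (adjusted p = 0.635 from limma). UNC13D, the partner of RAB27A in granule release, had 116 and 466 with estrogen+progesterone, 25.6 and 41.8 with estrogen and 367 and 388 with placebo. It missed the floor in both estrogen animals and was lower with estrogen than with placebo by at least 4.70-fold and higher with both hormones than with estrogen by at least 3.64-fold (adjusted p = 0.635 and 0.799). The second difference was 2.09 with all arrays and 1.18 without estrogen+progesterone 2. The high UNC13D signals came from estrogen+progesterone 2 and the placebo arrays, which had the highest floors, at 283, 216 and 221. The part of the unequal array signal in these UNC13D differences was not tested. The mean of UNC13D with estrogen and that of RAB11FIP2 with placebo lay under the filter. Both genes thus entered the test through the arrays where they are high. RAB11FIP3 stood at -2.01 ± 0.89 for both hormones minus placebo, with 381 and 181 with estrogen+progesterone and 771 and 573 with placebo, and at -1.30 without estrogen+progesterone 2. Over the 4 lists together, unadjusted p was under 0.05 for 3 effectors with estrogen, where 4.92% of all genes were, and for 1 effector and 1 GTPase-activating protein with both hormones against placebo, where 2.38% were. It was so for 1 effector with both hormones against estrogen, where 0.705% were.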

How the data were processed

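Per the labels' protocols, RNA of laser-captured serotonin neurons was purified on microkit columns and labelled with biotin; groups were read from the sample titles. The authors deposited 1 linear intensity per probe set and array, scaled per array, since the mean trimmed by 2% per end came to about 200 on every array. Summarization software is not given in the sources used here and no detection call was used, so the floor stands in for a detection call.

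Probe sets were named from the platform annotation, with symbols updated by gene number; 79 of 81 RAB probe sets matched the RefSeq gene table (assembly T2T-MMU8v2.0) and the other 2 kept their symbols. Another 3 probe sets with RAB1A among several symbols were left out. No genome or sequence table of the array's build was used, so no sequences or positions are given.

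With 16 added, intensities were put on the log2 scale and quantile normalized. Of the non-control probe sets those from the 50th percentile of the mean upward were tested, 26383 in all. With limma 3.58.1 (R 4.3.3), 1 model over the 6 arrays gave the group means (3 residual degrees of freedom, empirical Bayes, two-sided), with Benjamini-Hochberg adjustment over all probe sets tested and a threshold of 0.05. The fit was tested on simulated data. The smallest p of an exact permutation test with 2 against 2 is 0.333. Fold bounds set the group above the floor against the higher of floor and measured value on each array of the other group, on normalized values.

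The rule for named genes took, per comparison, up to 6 higher and 6 lower RAB genes whose groups were apart on all arrays by a difference of 1 or more, by unadjusted p, and added RAB3A, RAB3B, RAB3C, RAB27B, RAB1A, RAB2A, RAB6A, RAB5A, RAB4A, RAB11A, RAB7A, RAB10 and RAB14 whatever their values; of each partner list, up to 2 genes by unadjusted p. The members, role groups and partner lists were chosen with earlier results of these data known, so no test over a list was made. Alternatives were other offsets, normalizations and filters, array weights, 2 groups alone, a trended prior, the replicate number as a block, leaving out 1 array at a time, the mean over a gene's probe sets and, chosen after seeing the data, scaling to the 27 hybridization control probe sets.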

Additional observations from a re-analysis of the deposited data

How the results depend on the processing

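Scaling and the omission of single arrays both moved the RAB values. For estrogen minus placebo the median RAB difference of 0.25 became 1.76 under median-centering and 2.91 with scaling to the hybridization controls, an alternative chosen after seeing the data. RAB3A turned to 0.10 without quantile normalization, 1.34 under median-centering and 2.49 with scaling to these controls, and RAB11B to 0.80 and 1.95 under the last 2. With that control scaling RAB24 turned to 0.62, RAB27A to 0.63, RAB30 to 0.62, RAB3D to 0.11 and the RAB31 probe set marked x to 0.76. For both hormones minus placebo the median became -0.050 without quantile normalization, 0.39 under median-centering, 0.60 with control scaling and 0.22 with the mean over a gene's probe sets. Without quantile normalization RAB2A turned to 0.25 and RAB6A to 0.45. Under median-centering RAB2A turned to 0.69, RAB4A to 0.40, RAB6A to 0.90, RAB7A to 0.39 and YIPF1, a Golgi protein of the prenylation and extraction list, to 0.10; with control scaling these stood at 0.90, 0.61, 1.10, 0.60 and 0.30. The mean over probe sets turned RAB2A to 0.42 and RAB7A to 0.31. For both hormones minus estrogen the median became -1.08 under median-centering, -2.02 with control scaling and -0.67 with a 75th percentile filter. RAB1A turned to -0.58 under median-centering, -1.52 with control scaling and -0.0022 with the mean over probe sets, and RAB11B to -0.89 with control scaling. With 1 array left out at a time, the median for estrogen minus placebo lay between -0.15 and 0.49, that for both hormones minus placebo between -0.89 and 0.42 and that for both hormones minus estrogen between -0.58 and -0.019. Over the same omissions RAB2A ran from -0.20 to 0.69 and RAB7A from -0.13 to 0.90 for estrogen minus placebo. For both hormones minus placebo RAB2A ran from -1.14 to 0.42, RAB4A from -2.15 to 0.42, RAB6A from -2.02 to 1.31 and RAB7A from -1.77 to 0.26, and for both hormones minus estrogen RAB2A ran from -1.37 to 0.15. Array weights called 434 probe sets for estrogen minus placebo, 4 of them RAB, and omissions called from 0 to 3599 for both hormones minus estrogen, from 0 to 9 of them RAB, the highest without estrogen+progesterone 1. The causes were not tested. The replicate number, which did not pair the animals (correlations of deviations from -0.06 to 0.08), left the count of calls at 0 in each comparison when used as a replicate block and changed no call. Offsets of 1 and 64, no filter, a trended prior and 2 groups alone turned the sign of none of the differences named in the text and made no call; over all tested RAB genes, 11 of 29 in place of 12 were above 0 for both hormones minus estrogen at an offset of 64. With 2 animals per group, 1 array apart and placebo floors of 216 and 221, low RAB transcripts had bounds at best.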
